A study of Mus musculus with 10 samples.

Results

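The genes described here are 30 interferon-stimulated genes, the transcripts that mammalian cells make when type I interferon reaches its receptor, read in primary mouse keratinocytes. They were chosen by name, as genes whose induction by interferon is well established, but with earlier results of these data known. Of the 30 genes, 28 were read, among 18193 genes in all. For each, the probe set annotated to that gene alone with the highest mean over all 10 arrays was taken. Isg15 was not analysed here because its probe set is also annotated to another gene, and Ifi44 because no probe set carried its name in the annotation used.

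Keratinocytes are the epithelial cells of the epidermis. Those labelled KO came from Sgpp1-/- mice and those labelled WT from Sgpp1+/+ mice, with 5 arrays in each group. Arrays are named here by replicate number, which is 8, 9, 10, 21 and 23 (KO) and 1 to 5 (WT). The array number is the same, except that it is 6 for KO 21 and 7 for KO 23. Both groups were cultured at 0.05 mM calcium with 8% serum, harvest fell between days 3 and 4, and no interferon or other stimulus is named. Sgpp1 encodes sphingosine-1-phosphate phosphatase 1, which dephosphorylates a signalling lipid. The age, sex and strain of the mice, the nature of the Sgpp1 allele and whether each sample came from a separate animal or culture are not given in the sources used here, so p-values here rest on sample-to-sample spread that may be technical.

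Array medians lay between 5.02 and 5.17 on the log2 scale, and arrays correlated with each other at 0.943 to 0.990 over all probe sets. Sgpp1 itself was not lower on the arrays labelled KO. Its brightest probe set read 8.46 to 9.03 on KO arrays and 6.25 to 8.33 on WT arrays, a difference of 1.15 (SE 0.33, limma adjusted p = 0.102). Its other probe sets were also higher on average in KO, by 1.24 and 0.51, so none of the 3 showed a loss. Where the allele is disrupted is not stated, so these probe sets may lie outside the deleted stretch, and every direction below rests on the labels alone. The keratinocyte marker Krt5 read 12.65 to 12.89 on KO arrays and 12.72 to 12.86 on WT arrays. Of 14 keratinocyte differentiation markers, 13 rose in KO arrays and 0 fell, against 2.30% of all genes called higher and 0.346% called lower. Krtdap, the one with the highest mean signal, rose by 1.08 (SE 0.22, limma adjusted p = 0.0173), a call lost without KO 9 or without KO 10 (adjusted p 0.0514 and 0.0524).

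Type I interferons bind the receptor pair Ifnar1 and Ifnar2, and the receptor's kinases phosphorylate Stat2, among others. Stat2 and Irf9 are subunits of the complex ISGF3, which binds the interferon-stimulated response element in promoters and switches on antiviral genes together. Type II interferon acts through a different sequence, the gamma-activated site. Epidermal cells meet viruses first, and keratinocytes keep such genes at a low level at rest and raise them after infection or injury.

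The response element was looked for in the promoters, because it is the sequence through which these genes are known to be switched on. Promoters came from RefSeq (GRCm38.p6), each covering 250 bases before to 50 bases after a gene's start, and 23 of the 30 genes had an entry. The motif searched was GAAA, any 2 bases and GAAA again, on both strands, and overlapping matches were counted. It occurred in 13 of the 23 genes (56.5%), against 3.99% of the 27025 genes in the table. The gamma-activated site, searched as TTCNNNGAA, occurred in 5 of the 23 (21.7%), against 9.55% of all genes. In Bst2 and Ifitm3 it overlapped a response element match. A match describes these letters only, and a gene without one can carry an element elsewhere. The windows below are those of 6 genes that the results turn on. They are written 5′ to 3′ on the gene's own strand, with the response element in capitals, read forwards or as its reverse complement.
Ifit1: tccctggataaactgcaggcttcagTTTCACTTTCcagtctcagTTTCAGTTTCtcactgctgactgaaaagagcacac
Ifit3: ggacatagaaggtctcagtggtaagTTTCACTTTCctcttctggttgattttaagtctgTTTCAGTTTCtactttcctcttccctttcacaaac
Rsad2: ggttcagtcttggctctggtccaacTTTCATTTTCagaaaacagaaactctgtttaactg
Oas1a: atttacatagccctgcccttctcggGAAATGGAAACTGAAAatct
Gbp3: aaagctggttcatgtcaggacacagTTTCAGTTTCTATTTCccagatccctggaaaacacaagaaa
Bst2: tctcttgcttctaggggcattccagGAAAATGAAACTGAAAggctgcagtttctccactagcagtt

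These windows lie at chr19:34640760-34640838 on the + strand for Ifit1 and at chr19:34583348-34583441 on the + strand for Ifit3. Those of Rsad2 and Oas1a lie at chr12:26456538-26456597 and chr5:120907526-120907570, both on the - strand. Those of Gbp3 and Bst2 lie at chr3:142559974-142560039 on the + strand and chr8:71537562-71537627 on the - strand. Ifit1 and Ifit3 carry 2 separate matches each, and in Oas1a, Gbp3 and Bst2 the 2 matches overlap. The match nearest the gene's start begins 85 bases before it in Ifit1, 122 in Ifit3, 120 in Rsad2, 14 in Oas1a, 39 in Gbp3 and 124 in Bst2.

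Interferon-stimulated genes did not pass the test between KO and WT, and their main pattern was a spread between arrays of the same genotype. Nearly all of them were high on the arrays KO 23 and WT 5. The mean of the 28 genes, relative to the 10-array mean of each gene, was 0.23 on KO 8, -0.22 on KO 9, -0.83 on KO 10, -0.74 on KO 21 and 1.01 on KO 23. On the WT arrays it was -0.51 on WT 1, -0.44 on WT 2, 0.01 on WT 3, 0.13 on WT 4 and 1.36 on WT 5 (log2 units). The highest and lowest arrays differed 4.55-fold in this mean. One array of each genotype therefore stood above the other 8, the highest of which was KO 8 at 0.23. In 25 of the 28 genes (89.3%) the 2 highest arrays were KO 23 and WT 5, against 6.37% of all genes. This pair was picked from the mean of these same genes, so the count describes the pattern and is no independent test of it.

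**Figure D1:**
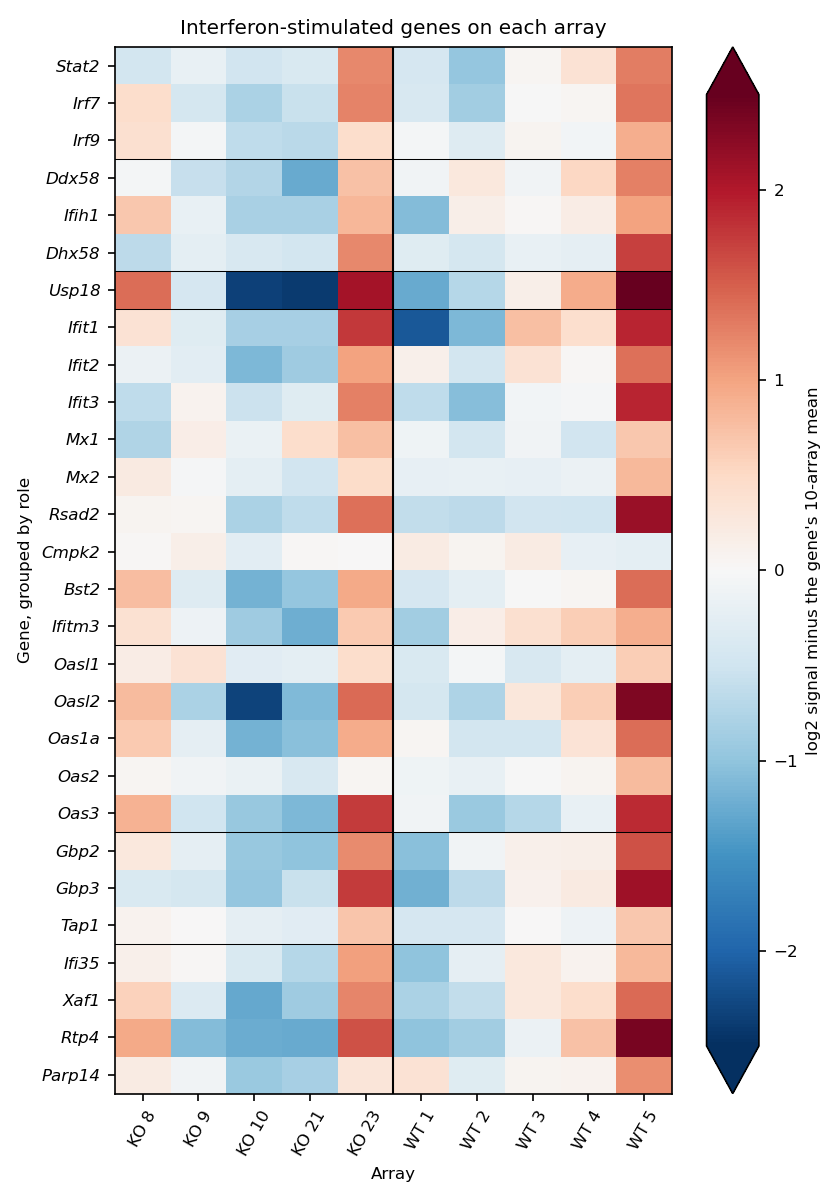
Log2 signal of each of the 28 genes (rows, grouped by role) on each array (columns, KO arrays left of WT arrays), as the difference from that gene's 10-array mean. KO 23 and WT 5 are high in nearly every row, and KO 10 and KO 21 are low in most; Cmpk2 shows little variation.

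The signal transducers were read through Stat2, Irf9 and Irf7. Stat2, a subunit of ISGF3, read 6.00, 6.27, 5.97, 6.06 and 7.66 on KO 8, 9, 10, 21 and 23, against 6.02, 5.48, 6.50, 6.81 and 7.74 on WT 1 to 5 (log2 signal). The groups overlapped, and the top array of each group stood clear of its others. Irf9, the DNA-binding subunit of ISGF3, read 7.53, 7.08, 6.50, 6.47 and 7.58 on the KO arrays and 7.09, 6.81, 7.20, 7.06 and 8.05 on the WT arrays. In Irf9, KO 8 was nearly as high as KO 23. Irf7, which raises interferon-alpha production once it is itself induced, read 5.83, 4.95, 4.61, 4.84 and 6.64 on the KO arrays and 4.98, 4.52, 5.38, 5.43 and 6.72 on the WT arrays. The differences of the 3 genes, KO minus WT, lay between -0.21 and -0.03, with a smallest limma adjusted p of 0.862.

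The cytoplasmic sensors of viral RNA followed the same arrays. Ddx58, which encodes RIG-I, read 6.94, 6.40, 6.24, 5.73 and 7.73 on the KO arrays and 6.90, 7.25, 6.90, 7.51 and 8.25 on the WT arrays. KO 9, KO 10 and KO 21 lay below every WT array, and KO 8 and KO 23 lay within the WT range. Its difference of -0.75 (SE 0.35, 95% confidence interval -1.52 to 0.01) had the smallest limma adjusted p of the 28 genes, 0.399. Ifih1, which encodes MDA5, read 6.99, 6.13, 5.49, 5.51 and 7.14 on the KO arrays and 5.23, 6.46, 6.34, 6.51 and 7.31 on the WT arrays. Here WT 1 was the lowest array. Dhx58, which encodes LGP2, a regulator of the other sensors, read 4.21, 4.62, 4.47, 4.41 and 6.07 on the KO arrays and 4.57, 4.42, 4.68, 4.65 and 6.57 on the WT arrays. Its other arrays lay within a narrow band, from which KO 23 and WT 5 alone stood out. That holds for the Dhx58 probe set read, with a mean of 4.87. Another, with a mean of 4.81, was also highest on WT 5 and next on KO 23. It correlated with the one read at only 0.60, and its difference was -0.56. The dimmest, with a mean of 2.65, correlated at 0.32 and was highest on WT 1.

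Usp18, the protease that removes the ubiquitin-like protein ISG15 from its targets and also damps the interferon receptor, had the largest standard deviation within genotype of the 28 genes, 1.80. It read 7.39, 5.57, 3.67, 3.60 and 8.08 on the KO arrays and 4.73, 5.28, 6.14, 6.92 and 8.54 on the WT arrays. Its lowest KO arrays, KO 10 and KO 21, read within the range of background signal (2.08 to 3.84, the readings of Y-linked genes on the 6 arrays where all of them are below 4). The difference of -0.66 (SE 0.92, 95% confidence interval -2.65 to 1.32) is small beside that spread (limma adjusted p = 0.875).

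Among the antiviral effectors, the Ifit genes encode proteins that bind foreign RNA ends and block its translation. Ifit1 read 7.30, 6.65, 6.12, 6.13 and 8.72 on the KO arrays and 4.84, 5.83, 7.69, 7.38 and 8.85 on the WT arrays. Both genotypes spanned several log2 units, and the highest array exceeded the lowest 16.1-fold. Ifit3 read 6.70, 7.43, 6.80, 7.04 and 8.60 on the KO arrays and 6.70, 6.28, 7.27, 7.30 and 9.24 on the WT arrays, with KO 23 and WT 5 clear of the rest. The mouse genome holds close relatives of Ifit1 and Ifit3, so a probe set can also read these. Ifit2 ranged from 4.01 to 6.14 on the KO arrays and from 4.69 to 6.51 on the WT arrays.

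Rsad2, which encodes viperin, an enzyme that makes a chain-terminating nucleotide, read 6.57, 6.56, 5.72, 5.87 and 7.89 on the KO arrays and 5.90, 5.85, 6.03, 6.01 and 8.67 on the WT arrays. The other 4 WT arrays lay within a narrow band far below WT 5. Bst2, which encodes tetherin and holds budding virus at the cell surface, read 8.64, 7.54, 6.68, 6.89 and 8.82 on the KO arrays and 7.45, 7.63, 7.86, 7.91 and 9.26 on the WT arrays. In Bst2, as in Irf9, KO 8 was close to KO 23. Ifitm3, which blocks fusion of virus in endosomes, read 9.9996 to 11.87 on the KO arrays and 10.36 to 12.14 on the WT arrays.

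Mx1 and Mx2, dynamin-like GTPases that trap viral nucleocapsids, were dim. Mx1 ranged from 3.09 to 4.58 on the KO arrays and from 3.35 to 4.51 on the WT arrays, and Mx2 from 2.58 to 3.53 on the KO arrays and from 2.85 to 3.87 on the WT arrays. Cmpk2, a mitochondrial nucleotide kinase gene next to Rsad2, was the exception among the 28. It read 3.93, 4.05, 3.65, 3.93 and 3.92 on the KO arrays and 4.11, 3.98, 4.10, 3.69 and 3.67 on the WT arrays. Neither KO 23 nor WT 5 was high in it, and its signal is near the background range. Its other probe set, dimmer at a mean of 2.24, was highest on KO 23 and next on WT 5. That probe set correlated at -0.22 with the one read.

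The oligoadenylate synthetases make the second messenger that activates RNase L. Oas1a read 8.61, 7.73, 6.79, 6.93 and 8.89 on the KO arrays and 8.01, 7.51, 7.51, 8.31 and 9.36 on the WT arrays. Its genomic neighbours are near-identical in sequence, so its value may include them. Oasl2, which encodes a synthetase-like protein with ubiquitin-like domains, read 7.12, 5.55, 4.01, 5.24 and 7.75 on the KO arrays and 5.89, 5.56, 6.62, 6.94 and 8.67 on the WT arrays. It had the largest negative difference of the 28 genes, -0.80 (SE 0.70, 95% confidence interval -2.31 to 0.71, limma adjusted p = 0.739). Oas3 ranged from 3.96 to 6.82 on the KO arrays and from 4.14 to 6.93 on the WT arrays. Oas2 ranged from 4.34 to 4.79 on the KO arrays and from 4.56 to 5.54 on the WT arrays, with only WT 5 set apart. Oasl1 read 2.72 to 3.46 on the KO arrays and 2.62 to 3.64 on the WT arrays. Every array of Oasl1 lay within the range of background signal, and 7 of the 28 genes had some array at or below its upper end.

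Gbp3 and Gbp2 encode guanylate-binding proteins, GTPases that coat the vacuoles of intracellular pathogens. Gbp3 read 4.14, 4.07, 3.54, 3.95 and 6.26 on the KO arrays and 3.31, 3.87, 4.63, 4.73 and 6.63 on the WT arrays. KO 10 and WT 1, its lowest arrays, read within the range of background signal. Gbp2 ranged from 3.61 to 5.81 on the KO arrays and from 3.58 to 6.21 on the WT arrays. Tap1, a subunit of the transporter that feeds peptides to class I molecules, read 8.24, 8.16, 7.92, 7.87 and 8.83 on the KO arrays and 7.73, 7.73, 8.16, 8.02 and 8.83 on the WT arrays. Its range was narrower, but the same pair of arrays was highest. The other Tap1 probe sets were dimmer, with means of 4.89, 2.49 and 1.67. They did not follow the one read, correlating with it at -0.61, -0.01 and -0.48.

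Of the remaining genes, Rtp4, a chaperone gene for receptor transport, read 7.10, 5.07, 4.91, 4.89 and 7.75 on the KO arrays and 5.15, 5.29, 6.01, 6.90 and 8.53 on the WT arrays, a 12.4-fold span. Xaf1, which encodes an antagonist of the apoptosis inhibitor XIAP, read 8.43, 7.51, 6.57, 6.97 and 9.08 on the KO arrays and 7.06, 7.25, 8.12, 8.29 and 9.27 on the WT arrays. In both genes KO 8, KO 23 and WT 5 were the 3 highest arrays. Ifi35 ranged from 8.92 to 10.66 on the KO arrays and from 8.63 to 10.44 on the WT arrays. Parp14, an ADP-ribosyltransferase gene, ranged from 5.35 to 6.58 on the KO arrays and from 5.99 to 7.44 on the WT arrays.

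Across the 28 genes, 26 were highest among the KO arrays on KO 23 and 27 were highest among the WT arrays on WT 5. Over all 10 arrays, 24 were highest on WT 5 and 3 on KO 23. KO 8 lay above KO 9, KO 10 and KO 21 in 22 genes. The lowest array was KO 10 or KO 21 in 16 genes and WT 1 or WT 2 in 9.

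Between genotypes, 0 of the 28 genes were called higher and 0 lower by limma (threshold 0.05, p-values adjusted by Benjamini-Hochberg across all 18193 genes). Over all genes, 2.30% were called higher and 0.346% lower in KO, 2.65% in either direction. At an unadjusted p under 0.05 the count was 0 of 28, against 13.0% of all genes. In 0 of the 28 genes did the KO arrays separate from the WT arrays, against 4.38% of all genes, 3.36% with KO above WT and 1.02% with KO below. The difference was above 0 in 7 genes and below 0 in 21, with a median of -0.22 against -0.01 over all genes, and it ran from -0.80 for Oasl2 to 0.18 for Mx1. Without WT 5 the median was 0.11, so its sign rests on that array; without each other array in turn it stayed below 0, between -0.42 (without KO 23) and -0.02 (without KO 10).

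**Figure D2:**
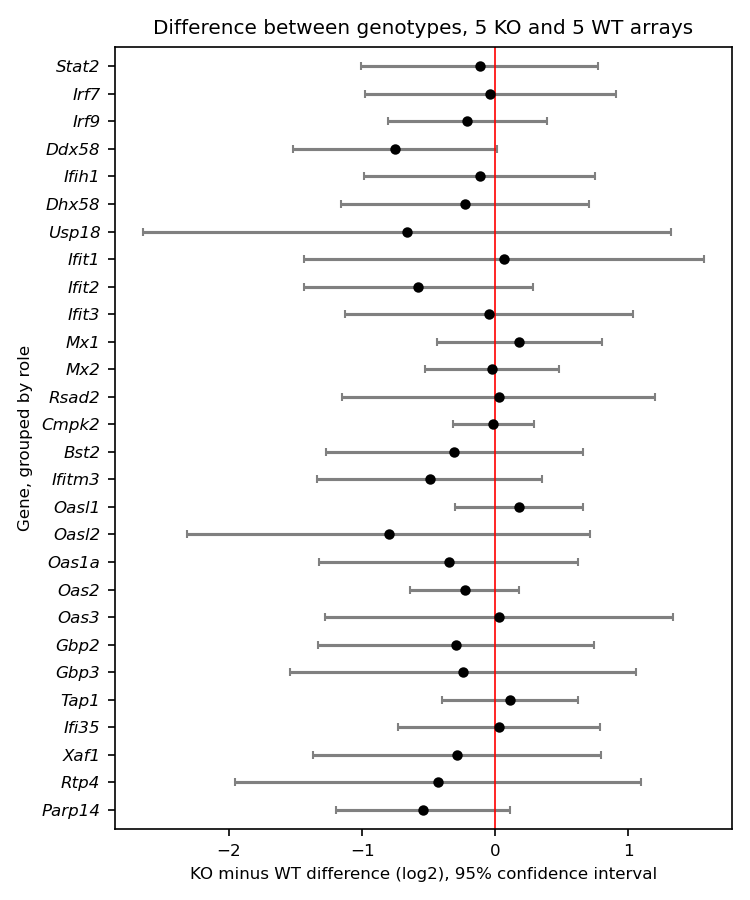
KO minus WT difference (log2) of each of the 28 genes, grouped by role, with its 95% confidence interval from the limma fit on 5 KO and 5 WT arrays. Every interval spans 0, and the estimates run from -0.80 (Oasl2) to 0.18 (Mx1).

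A p above the threshold does not show that the genotypes were alike. The 95% confidence intervals of all 28 differences span 0, and 18 of them include a difference of 1 in one direction or the other, which is a 2-fold change. Their half-widths ran from 0.31 to 1.99 with a median of 0.91. When KO 23, KO 8 and WT 5 were all left out, Ddx58 was called lower, with a difference of -1.01 (SE 0.22, limma adjusted p = 0.0449). In that fit 9 of the 28 genes had an unadjusted p under 0.05, and the share of all genes at that level is not given here. Over all 18193 genes the same fit called 330 higher and 219 lower. The arrays left out were picked after the data were seen, because the genes themselves were high on them, so the Ddx58 call is no independent comparison. Over the other alternatives run, 0 of the 28 genes were called.

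The spread between arrays of the same genotype was large for these genes. Their median standard deviation within genotype was 0.81, against 0.29 over all genes and 0.31 over genes with a mean of at least 5. Of all genes, 2.18% had a standard deviation at least as large as that median. Of the 28 genes, 20 exceeded the 95th percentile of all genes, 0.62, and 21 had a range of at least 2 log2 units over the 10 arrays, against 7.003% of all genes. Genotype accounted for a median of 2.81% of the variation of a gene, against 8.34% over all genes.

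**Figure D3:**
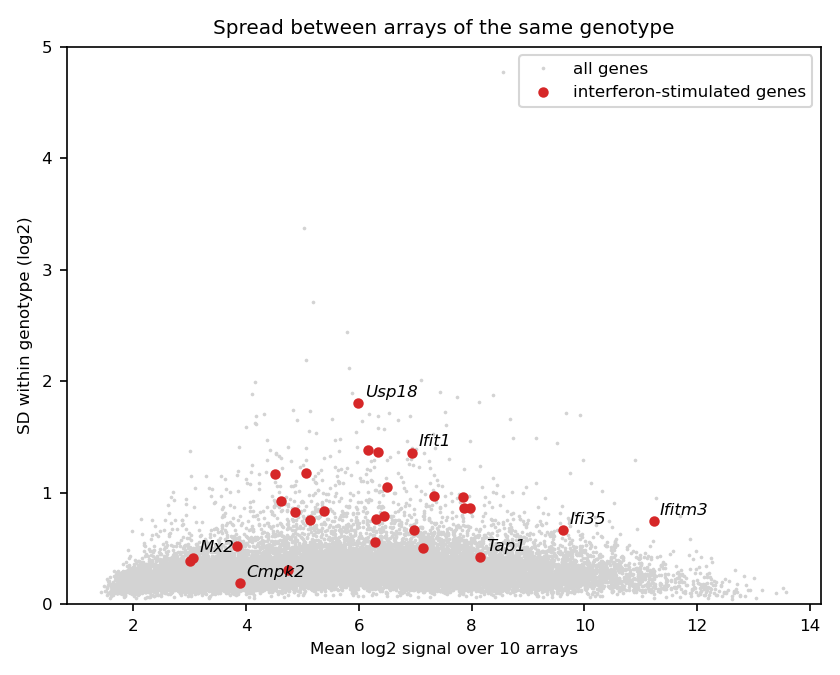
Standard deviation within genotype (log2, y axis) against mean log2 signal over the 10 arrays (x axis) for all 18193 genes (grey) and the 28 interferon-stimulated genes (red). Most red points lie above the bulk of grey points at their signal, with Usp18 highest at 1.80 and Cmpk2 lowest at 0.19.

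The genes also moved together within each genotype. After the group means were taken away, the median correlation over the 378 pairs of genes was 0.84 across the 10 arrays, and 351 pairs were above 0. Each gene was next set against the mean of the other 27, and Tap1 (r = 0.98), Irf7 (0.97), Gbp2 (0.96) and Xaf1 (0.96) followed it most closely. Mx1 (0.49) and Cmpk2 (-0.29) followed it least. Without KO 23 and WT 5 the median over pairs was 0.63 on 8 arrays. There Usp18 (0.96) and Xaf1 (0.96) remained close to the other genes, while Dhx58 (-0.02) and Mx1 (-0.52) did not. The 12 genes read whose promoter window held a response element had a median correlation of 0.91 with the others, and the 9 without one had 0.95. These correlations are descriptions, since all points share the same 10 arrays and one normalisation.

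Among the 10726 genes outside the list with a mean of at least 5, the 8 that followed the mean of the 28 most closely were Igtp (r = 0.98), Helz2 (0.97), Trim34a (0.97), Ddx52 (0.96), Eif2ak2 (0.96), H2-D1 (0.96), Fanci (0.96) and Rab26os (0.96), over 10 arrays. Igtp encodes an immunity-related GTPase, Eif2ak2 the RNA-activated kinase PKR and H2-D1 a class I molecule. Igtp read 7.38, 6.53, 5.27, 5.21 and 8.01 on the KO arrays and 5.55, 5.87, 6.21, 6.58 and 8.15 on the WT arrays. Of the 20 closest genes, 7 were on one of the pathway lists described next.

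The rest of the pathway was read through 5 lists with 133 genes read in all. Of 9 interferon ligand genes 0 passed the test, and 7 of them, including Ifnb1, Ifna4 and Ifng, read at background on every array. Ifnb1 read 2.84 to 3.32 on the KO arrays and 2.77 to 3.21 on the WT arrays, and was not raised on KO 23 (2.99) or WT 5 (2.88). Ifna1 read above background, at 6.40 to 7.39 on the KO arrays and 6.22 to 6.93 on the WT arrays, and its family is near-identical in sequence. Transcript at the time of harvest does not measure interferon made earlier, nor protein in the medium.

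Of 19 receptor and signalling genes 0 passed. Ifnar1 read 7.21 to 7.70 on the KO arrays and 7.46 to 8.25 on the WT arrays, with a difference of -0.24 (SE 0.17), and Ifnar2 differed by -0.31 (SE 0.17). Irf3, the factor that first switches on the interferon-beta gene, differed by -0.13 (SE 0.23). Irf1 differed by -0.30 (SE 0.14, limma adjusted p = 0.370), and Socs3, a feedback inhibitor, by 0.68 (SE 0.23, limma adjusted p = 0.177). Pias1 differed by 0.23, and its KO and WT arrays did not overlap, but it did not pass either. The 2 highest arrays were KO 23 and WT 5 in 3 of these 19 genes.

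Of 17 genes of nucleic acid sensing 0 passed. The adaptor genes Ticam1 and Myd88 differed by 0.41 (SE 0.15) and 0.48 (SE 0.20), and Rnaseh2b, a subunit of the RNase that clears RNA from DNA, by -0.41 (SE 0.21). The smallest limma adjusted p among these 17 was 0.231. The mean of this list correlated with the mean of the 28 genes at 0.91 (rho 0.85) over 10 arrays, and at 0.77 over the 8 arrays without KO 23 and WT 5.

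Of 58 other interferon-stimulated genes, 2 rose and 1 fell, against 2.30% and 0.346% of all genes. Xdh, which encodes xanthine dehydrogenase, read 8.57, 8.53, 8.67, 8.93 and 7.80 on the KO arrays and 6.81, 7.55, 7.32, 7.07 and 6.50 on the WT arrays, a difference of 1.45 (SE 0.24, limma adjusted p = 0.00459). Its groups did not overlap, and here KO 23 and WT 5 were the lowest of their groups. Casp1, the inflammasome protease gene, rose by 0.82 (SE 0.19, limma adjusted p = 0.0405), and Apobec3, a cytidine deaminase gene that restricts retroviruses, fell by 0.95 (SE 0.21, limma adjusted p = 0.0322). Apobec3 read 6.63, 6.18, 6.51, 6.11 and 6.82 on the KO arrays and 7.87, 7.72, 6.83, 7.39 and 7.17 on the WT arrays, without overlap. Both calls were lost when single arrays were left out: Casp1 in 7 of 10 such fits (KO 8, KO 10, KO 21, WT 1, WT 2, WT 4 or WT 5 left out, adjusted p 0.0575 to 0.123) and Apobec3 in 6 (KO 9, KO 10, KO 21, WT 1, WT 2 or WT 4, adjusted p 0.0607 to 0.111). The Xdh call held in all 10. The mean of these 58 genes correlated with that of the 28 at 0.99 (rho 0.98) over 10 arrays, and in 29 of the 58 the 2 highest arrays were KO 23 and WT 5.

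Of 30 genes of the interferon-gamma programme and antigen presentation 0 passed. Psmb8, a subunit of the immunoproteasome, read 6.47, 5.02, 4.65, 4.68 and 6.75 on the KO arrays and 6.04, 6.23, 6.59, 6.43 and 6.73 on the WT arrays. KO 9, KO 10 and KO 21 lay below all WT arrays, and its difference of -0.89 (SE 0.39) had a limma adjusted p of 0.346. Psmb10, another such subunit, differed by -0.50 (SE 0.17, limma adjusted p = 0.173), and Cd74, the invariant chain, by -0.28 (SE 0.17). The 2 highest arrays were KO 23 and WT 5 in 16 of the 30 genes, and the mean of the list correlated with that of the 28 genes at 0.99 (rho 0.94).

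Of the markers of other cell types, those of myeloid cells and of melanocytes were high on both KO 23 and WT 5, and the other lists were not. On KO 23 and WT 5 the list means were -0.05 and -0.27 for plasmacytoid dendritic cells and 0.02 and -0.46 for T and NK cells. For endothelial cells they were 0.24 and -0.06, and fibroblasts are described below. The mean of 14 Langerhans and myeloid markers was 0.72 on KO 23 and -0.42 to -0.24 on the other KO arrays, and 0.92 on WT 5 and -0.25 to 0.09 on the other WT arrays (log2 units, relative to 10 arrays). Summed on a linear scale, this list read 1434 to 4279 on the KO arrays, highest on KO 23, and 2140 to 4764 on the WT arrays, highest on WT 5. In 7 of its 14 genes KO 23 and WT 5 were the 2 highest arrays. Epcam, the gene of the list with the highest mean signal, which keratinocytes in culture can also express, read 10.34 on KO 23 and 9.19 to 10.16 on the other KO arrays, and 10.48 on WT 5 and 10.27 to 10.80 on the other WT arrays. Tyrobp, a signalling adaptor of myeloid cells, read 9.04 on KO 23 and 6.18 to 6.50 on the other KO arrays, and 9.04 on WT 5 and 5.62 to 7.25 on the other WT arrays. Tyrobp was named after its values were seen and does not stand for the list. The 14 genes correlated one by one with the mean of the 28 at -0.65 to 0.95. The defining markers Ptprc, Cd207, Itgam and Adgre1 read at background on every array. The mean of this list correlated with that of the 28 genes at 0.86 (rho 0.41) over 10 arrays and at 0.02 without KO 23 and WT 5. On KO 8, where the 28 genes averaged 0.23, the myeloid mean was -0.42, the lowest of all arrays.

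Melanocyte markers did likewise. In 9 of 9 of them KO 23 and WT 5 were the 2 highest arrays, with list means of 1.11 on KO 23, -0.48 on KO 8 and 1.27 on WT 5, and linear sums of 2637 to 8507 on the KO arrays and 868 to 8962 on the WT arrays. Their mean correlated with that of the 28 genes at 0.70 (rho 0.48) over 10 arrays and at 0.08 without KO 23 and WT 5. Tyrp1, a melanin synthesis gene and the one with the highest mean signal, read 11.35 on KO 23 and 9.20 to 10.66 on the other KO arrays, and 11.14 on WT 5 and 6.996 to 10.59 on the other WT arrays. The mean of the fibroblast markers was 0.76 on KO 23 and -0.96 to -0.12 on the other KO arrays, so KO 23 was the highest KO array. Among the WT arrays it was highest on WT 3 (2.15) and WT 4 (1.92), while WT 5 read -0.95. Sparc, the one of these with the highest mean signal, read 11.15 on KO 23 and 9.73 to 10.61 on the other KO arrays, and 10.29 on WT 5 and 9.72 to 12.05 on the other WT arrays. The mean of 9 basal keratinocyte markers was lowest in each group on the same pair of arrays. It was -0.15 on KO 23 and 0.09 to 0.31 on the other KO arrays, and -0.26 on WT 5 and -0.14 to 0.02 on the other WT arrays. It correlated with the mean of the 28 genes at -0.68 (rho -0.48) over 10 arrays and at 0.06 without KO 23 and WT 5. Y-linked signal was present on KO 10, KO 23, WT 3 and WT 5, where Eif2s3y read 8.40, 8.58, 7.46 and 8.04. In such samples, more cells of a type and more RNA per cell cannot be told apart, and the part of these cell types and of the sex of the animals in the pattern was not tested.

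**Figure D4:**
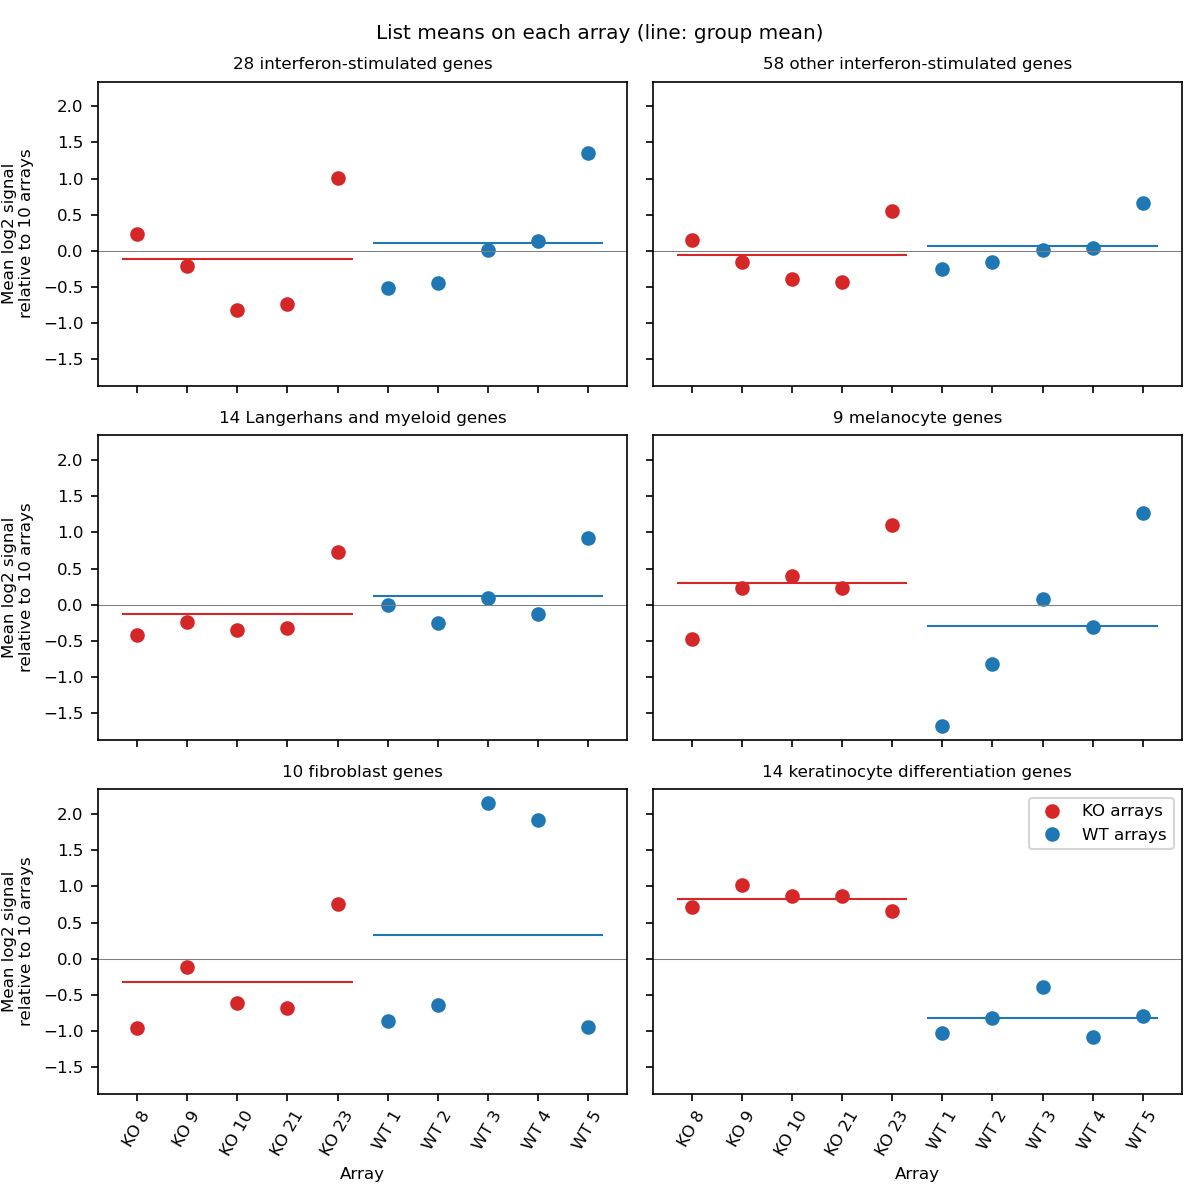
Mean log2 signal of gene lists on each array, relative to the 10-array mean of each gene, with KO arrays left of WT arrays and a line at each group's mean. KO 23 and WT 5 are high for the interferon-stimulated genes (1.01 and 1.36) and the myeloid markers (0.72 and 0.92), while the keratinocyte differentiation markers separate KO from WT.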

How the data were processed

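Total RNA from 10 samples of cultured keratinocytes was read on Affymetrix whole-genome mouse expression arrays, with 6 µg of RNA per labelling, per the labels' protocols. The deposited values are log2 signals made with RMA (robust multi-array averaging), per the submitters' processing notes; its version is not given in the sources used here. RMA brings all arrays to 1 distribution, so a shift common to most genes cannot be seen, and it compresses differences of dim genes. The values were used as deposited, with 0 value columns left out.

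Of 45101 probe sets, 64 are controls, 34945 carry 1 gene, 932 several and 9160 none in the platform annotation. Symbols were updated through the gene identifier, and 34741 of the single-gene probe sets matched the RefSeq table (GRCm38.p6). Each gene was read by its single-gene probe set with the highest mean over the 10 arrays, which gave 18193 genes. Of the 28 genes read, 11 had other probe sets, 17 in all, and 6 of these correlated at 0.8 or more with the one read.

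Groups follow the genotype labels. Differences, KO minus WT, were fitted by limma's lmFit and eBayes (version 3.58.1, under R 4.3.3; two-sided) on all 18193 genes with Benjamini-Hochberg adjustment at 0.05, and the fit was tested on simulated data. SE is the moderated standard error. Precision is set by having 5 arrays per group. Spread and correlation are descriptions. Group means were removed before correlations between genes and before correlations between list means.

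The genes, lists and tests were chosen with earlier results of these data known. Named genes are all members, Irf1, Irf3, Ifnar1 and Ifnar2, the 3 genes of each pathway list with the smallest adjusted p, the marker of each list with the highest mean signal and the 8 genes most like the members' mean. Ifnb1 and Tyrobp were named after their values were seen. Marker lists for plasmacytoid dendritic cells, T and NK cells, endothelial cells and immediate early genes were also read. Their means correlated with that of the 28 genes at -0.49, -0.43, 0.35 and -0.33 over 10 arrays. Their genes with the highest mean signal, Ly6d, Thy1, Pecam1 and Ier3, differed by 0.97, 0.25, -0.30 and 0.06, KO minus WT. Of these Ly6d passed (limma adjusted p = 0.0452), a call lost in 8 of 10 fits that left out 1 array. Alternatives were a filter on genes with a mean under 5, trended and robust moderation, array weights, array number as a covariate, the mean of all probe sets, renewed quantile normalisation, leaving out each array, and 3 sets of arrays left out that were added after seeing the data.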

Additional observations from a re-analysis of the deposited data

Results flagged for a closer look

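In 8 of the 58 groups of 5 arrays examined, 1 array stood far from the other 4 of its genotype by Dixon's criterion, which chance alone meets in about 5% of groups. The groups are not independent, since the genes move together. All 8 were the top array of their group, KO 23 in 3 and WT 5 in 5. On KO 23 these were Stat2 at 7.66 (other KO arrays 5.97 to 6.27), Dhx58 at 6.07 (4.21 to 4.62) and Gbp3 at 6.26 (3.54 to 4.14). On WT 5 they were Dhx58 at 6.57 (other WT arrays 4.42 to 4.68), Rsad2 at 8.67 (5.85 to 6.03), Bst2 at 9.26 (7.45 to 7.91), Oas2 at 5.54 (4.56 to 4.82) and Mx2 at 3.87 (2.85 to 2.93), all in log2 signal. The cause was not tested.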

How the results depend on the processing

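The count of interferon-stimulated genes called between KO and WT was 0 in every alternative run but 1. That 1 left out KO 23, KO 8 and WT 5, which were picked after seeing the data because these genes were high on them. It called 1 gene lower (Ddx58, -1.01, limma adjusted p = 0.0449), with 9 genes at an unadjusted p under 0.05, a median spread of 0.38 and a median pairwise correlation of 0.56. Of all 18193 genes, that alternative called 330 higher and 219 lower. Over the other alternatives the adjusted p of Ddx58 ran from 0.0778 (array weights) to 0.845 (array number as a covariate). The median difference, -0.22 as reported, ran from -0.90 with array number as a covariate to 0.11 without WT 5. Of 524 differences of single members under alternatives, 70 had the opposite sign to the reported one, and 1 of the 524 was past the threshold. The median pairwise correlation was 0.63 and the median spread 0.46 with KO 23 and WT 5 left out, arrays also chosen after seeing the data. Among the pathway genes, 2 higher and 1 lower as reported, the count of higher genes was 4 with array weights, 1 with the filter on dim genes, 0 with array number as a covariate, and 1 in each of the 3 sets of arrays left out. The count of lower genes was 4 with array weights, 0 with array number as a covariate, 4 without KO 23, KO 8 and WT 5, and 0 without KO 8, WT 1 and WT 2. Calls over all genes moved too: array weights called 877 higher and 561 lower, against 419 and 63 as reported. The filter on dim genes called 427 and 75 of 10746 genes. Leaving out KO 23 and WT 5 called 337 and 95, and leaving out KO 8, WT 1 and WT 2 called 370 and 43. With single arrays left out, the higher count of pathway genes ran from 1 to 2 and the lower from 0 to 1. Over all genes these ran from 264 to 419 and from 13 to 107. Array number as a covariate called 0 of all 18193 genes; the WT arrays hold the lower array numbers and the KO arrays the higher ones, so this covariate and genotype overlap. No paired analysis was possible because the KO and WT labels share no replicate number.

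Signals near background limit the dim genes, among them Oasl1, Mx1, Mx2 and Cmpk2, and 5 arrays per group leave intervals with a median half-width of 0.91 on the log2 scale.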
